A study of Komagataella pastoris with 6 samples.

Results

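The 99 genes described here are the ribosome biogenesis and rRNA processing genes of the methylotrophic yeast *Komagataella phaffii*, out of 5427 genes in the count table. A gene was taken as a member where its protein name or the description of its orthology group mentions ribosome biogenesis, rRNA processing, pre-rRNA, the nucleolus, ribosome assembly or ribosome production. Ribosomal proteins and RNA polymerase subunits were to be left out, but no matched gene was of these kinds. The protein name brought in 67 members and the orthology group 69, with 37 matched by both. By the role of the protein of that name in *Saccharomyces cerevisiae*, 46 members act on the small subunit, 37 on the large subunit, 5 in small nucleolar ribonucleoproteins (snoRNPs) and rRNA modification, 3 as rRNA nucleases, 5 in export and cytoplasmic maturation, and 3 in rDNA transcription or other nucleolar work. For 8 of them no gene symbol was used, and these are given by locus tag, although some of their descriptions point to one.

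Ribosomes are built in the nucleolus, where RNA polymerase I transcribes a long precursor of the 18S, 5.8S and 25S rRNAs. Assembly factors join this precursor in turn, fold, modify and cut it, and leave again, so that a small and a large subunit are released and exported to the cytoplasm. In *S. cerevisiae* the genes of these factors are known as a regulon whose transcript levels move with growth rate and nutrient supply, through the kinases TOR1 and SCH9 and the transcription factor SFP1.

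Transcripts were measured by RNA-seq in 6 libraries, named A to F in the labels, from cells grown for 24 h. Libraries A and B came from *GS115*, a histidine auxotroph with the genotype *his4*, in YPA, a rich medium of yeast extract and peptone with acetate as carbon source (*GS115*-YPA). Libraries C and D came from *X33*, a prototroph with an intact *HIS4*, in the same medium (*X33*-YPA), and libraries E and F from *GS115* in YPA with 650 µM histidine added (*GS115*-YPAH5x). The labels also call the strains wild type and the organism *K. pastoris*, give no batch or date, and do not say whether the 2 libraries of a group were separate cultures, so a p-value measures the spread between these libraries, which may be technical. The comparisons of *X33*-YPA and of *GS115*-YPAH5x with *GS115*-YPA share libraries A and B.

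Library totals lay between 32194047 and 43447246 counts, and every member was counted in every library, the lowest with 31 reads. *HIS4*, the gene in which the strains differ, had 365 and 501 CPM in A and B, 187 and 220 CPM in C and D, and 207 and 181 CPM in E and F, where CPM are counts scaled by library total and by TMM, the trimmed mean of M-values. Since the auxotroph still transcribes the locus, this level does not check the strain labels. The members took 0.343 to 0.351% of all counts in *GS115*-YPA, 0.362 to 0.375% in *X33*-YPA and 0.282 to 0.284% in *GS115*-YPAH5x. These shares are not scaled by TMM. After TMM scaling the median CPM of the members was 19.7 and 21.8 in A and B. It was 21.5 and 19.7 in C and D, and 20.2 and 20.5 in E and F. The median absolute log2 difference of the members between the libraries of a group was 0.19, 0.16 and 0.10 in the same order. CPM depend on gene length, which the files do not give, so levels are compared between libraries and never between genes.

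**Figure D1:**
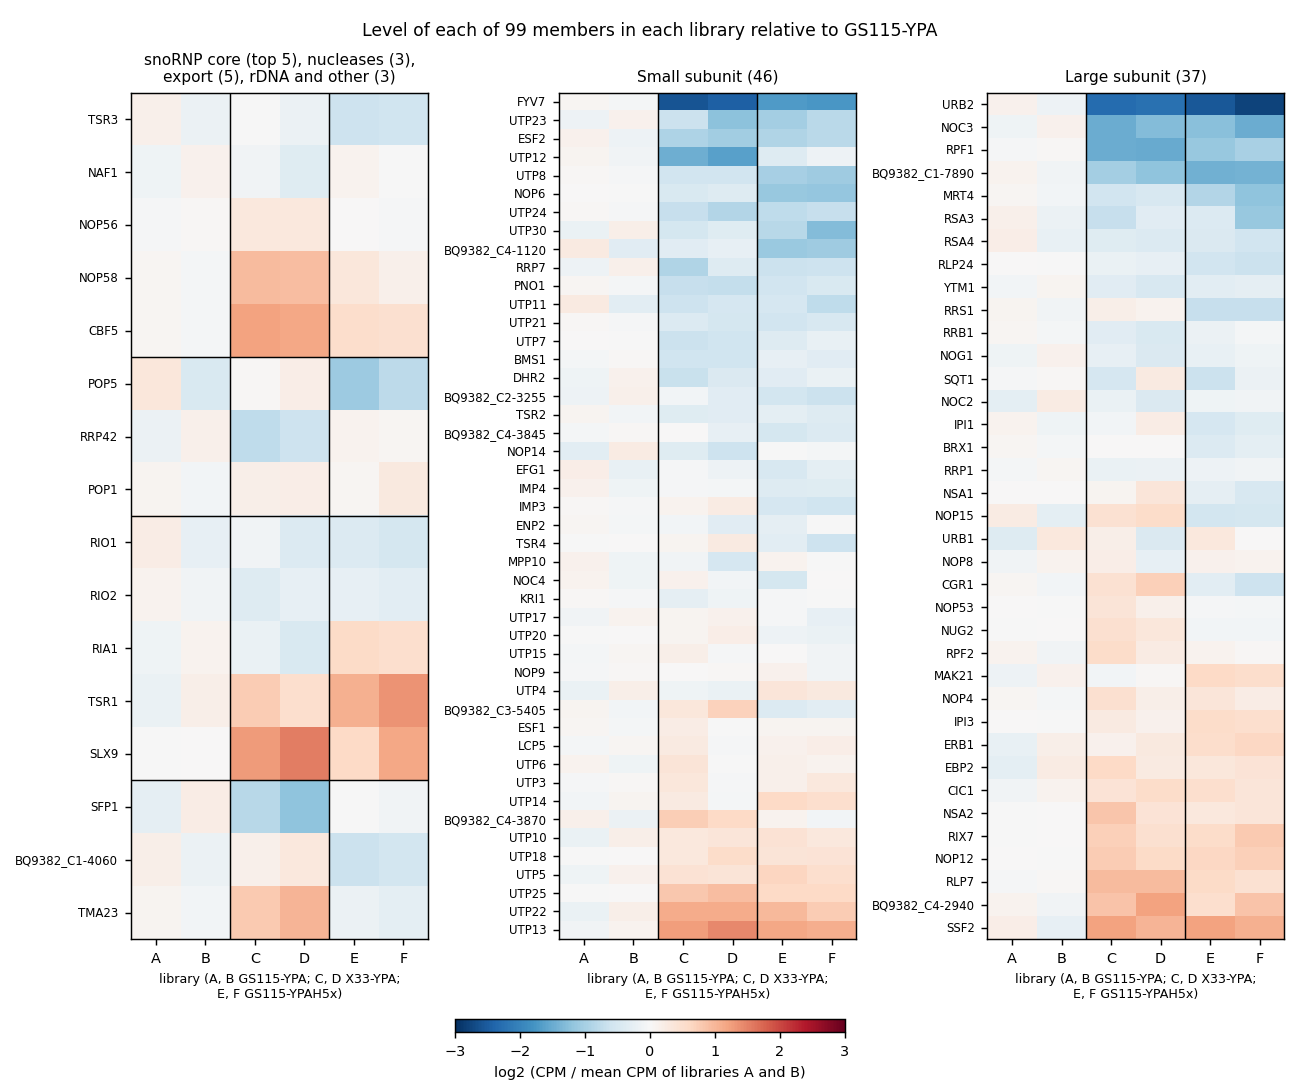
Level of each of the 99 members in the 6 libraries, as log2 of its CPM over the mean CPM of libraries A and B. Columns are libraries and rows are genes, sorted within each role by the sum of both log2 fold changes. *URB2* and *FYV7* have the darkest blue in libraries C to F, and most other genes stay within 1 unit of 0.

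The first comparison asks how these genes differ between the prototroph and the auxotroph in YPA. Some members fell far in *X33*-YPA: *URB2* (rRNA metabolism) was left with 20.7% of its mean level in *GS115*-YPA, *FYV7* (18S rRNA processing) with 17.5% and *UTP12* (small subunit processome) with 34.1%. Others rose, among them *SLX9* (export of the small subunit precursor), *UTP13* (small subunit processome) and *CBF5* (rRNA pseudouridine synthase). In all, 23 members were called higher, 22 lower and 54 neither, at an adjusted p under 0.05 from edgeR's quasi-likelihood test over all genes. Of the 5426 genes tested, 33.4% were called higher and 32.8% lower (66.2% in either direction), against 23.2% and 22.2% of the members. The median log2 fold change of the members was 0.00, beside 0.01 over all genes. Their quartiles of -0.41 and 0.34 lay closer together than the -0.68 and 0.67 of all genes, with a median SE of 0.16 in both. At an absolute log2 fold change of 1 or more, 6 members were called higher and 7 lower (all genes 15.7% and 17.1%). At 2 or more, *URB2* and *FYV7* were called lower and none higher (all genes 4.26% and 2.54%). Both libraries of *X33*-YPA lay above both of *GS115*-YPA for 35 members and below for 35 (all genes 41.2% and 40.4%, together 81.5%). Without library C, 15 members were called higher (all genes 27.6%) and the median was -0.10.

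The second comparison asks how the same genes respond in the auxotroph when histidine is added. *URB2* fell most, to 15.9% of its level in *GS115*-YPA, *FYV7* was left with 30.5%, and *NOC3* (large subunit assembly) also fell. *TSR1* (small subunit maturation), *UTP13* and *SSF2* (large subunit assembly) had the largest rises. Of the members, 18 were called higher, 30 lower and 51 neither by edgeR's test. Over all genes 30.7% were called higher and 29.1% lower (59.8% in either direction), so the 18.2% of members called higher lay below the background and the 30.3% called lower lay near it. The median log2 fold change of the members was -0.14, beside 0.00 over all genes. At an absolute log2 fold change of 1 or more, 3 members were called higher and 10 lower (all genes 12.8% and 12.6%). At 2 or more, *URB2* was called lower and no member higher (all genes 2.71% and 2.62%). Both libraries of *GS115*-YPAH5x lay above both of *GS115*-YPA for 29 members and below for 52 (all genes 41.1% and 39.8%, together 80.9%). Without library E 10 members were called higher and 19 lower, and without library F 11 and 16. The calls over all genes dropped too, to 24.1% higher and 21% lower without E and 22.9% and 21.3% without F. Scaled by library totals without TMM factors, the median of all genes moved to -0.20, and 8 members were called higher and 45 lower. Over all genes 22.6% were then called higher and 37.4% lower. Of the members called, 15.1% were higher in place of 37.5% (all genes 37.7% in place of 51.4%).

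**Figure D2:**
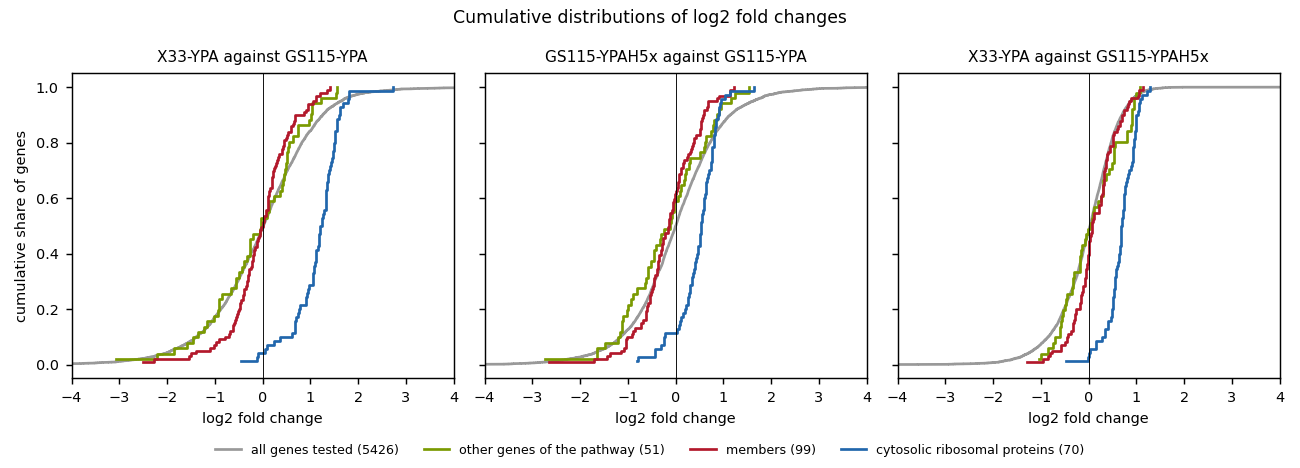
Cumulative share of genes (vertical axis) against log2 fold change (horizontal axis) in the 3 comparisons, for all 5426 genes tested, the 99 members, 51 other genes of the pathway and 70 cytosolic ribosomal proteins. The curve of the members is steeper than that of all genes in both comparisons with *GS115*-YPA, and the middle of the curve of the ribosomal proteins (medians 1.22, 0.54 and 0.69) lies to the right of the members and of all genes, while the upper ends cross.

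The third comparison sets the prototroph directly against the histidine-fed auxotroph. *UTP12*, *SFP1* (transcription factor of this gene group) and *RIA1* (release of a large subunit factor in the cytoplasm) were lower in *X33*-YPA, and *TMA23* (nucleolar protein), *NOP15* and *CGR1* (both of large subunit precursors) were higher. By edgeR's test 21 members were higher in *X33*-YPA, 10 lower and 68 neither. Over all genes 19.8% were called higher and 21.6% lower (41.4% in either direction), against 21.2% and 10.1% of the members. Their median log2 fold change was 0.06, beside 0.03 over all genes. At an absolute log2 fold change of 1 or more, 4 members were called higher and 1 lower (all genes 2.89% and 7.21%), and at 2 or more no member was called (all genes 0.0369% and 0.737%). Both libraries of *X33*-YPA lay above both of *GS115*-YPAH5x for 42 members and below for 27 (all genes 40.5% and 37.5%, together 77.9%). With library totals alone 41 members were higher and 5 lower (all genes 37.6% and 12.4%), and the median of all genes was 0.29. Of the members called, 89.1% were higher in place of 67.7% (all genes 75.2% in place of 47.8%). Single libraries also moved the counts, to 13 higher without C, 9 higher and 5 lower without D, 11 and 6 without E, and 7 and 5 without F. Over all genes the calls dropped as well, to 12.7% higher and 15.6% lower without C, 8.81% and 12.4% without D, 10.1% and 14.4% without E, and 5.95% and 11.3% without F.

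**Figure D3:**
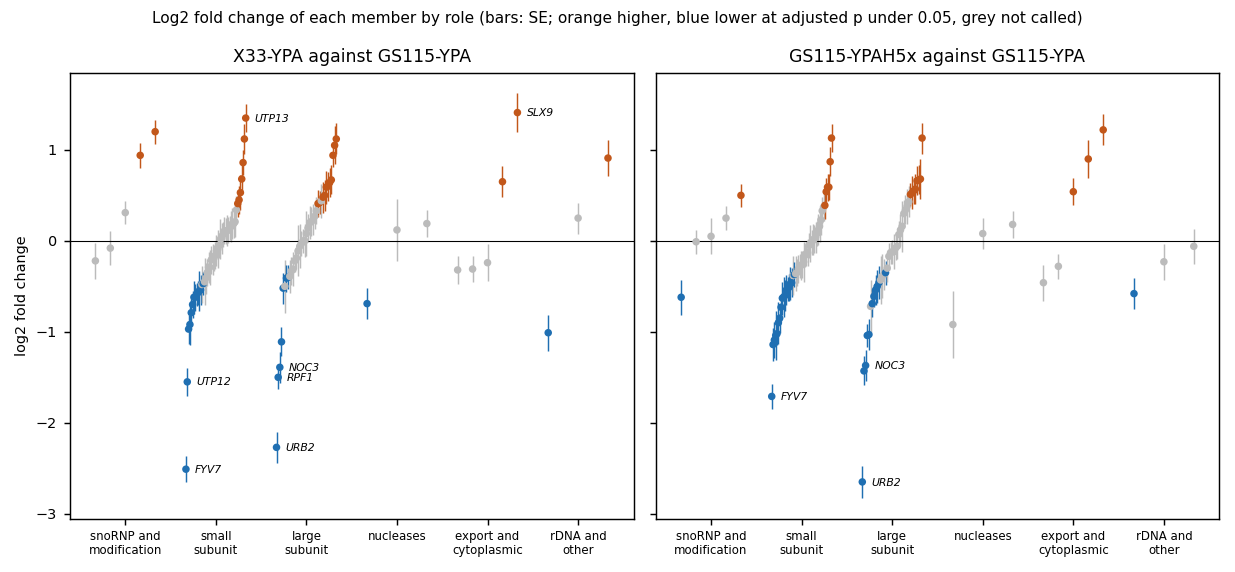
Log2 fold change of each member (points, with SE as bars) in *X33*-YPA and in *GS115*-YPAH5x against *GS115*-YPA, by role. Orange points are called higher and blue points lower at an adjusted p under 0.05. *URB2* and *FYV7* are the lowest points of the large and small subunit factors in both panels.

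Among the large subunit factors, *URB2* (BQ9382_C1-0805), a nucleolar protein needed for normal metabolism of the primary rRNA transcript, changed most. In A and B it stood at 36.7 and 30 CPM, in C and D at 6.77 and 7.06 CPM, and in E and F at 5.73 and 4.88 CPM. Both *GS115*-YPA libraries lay far above the other 4. The log2 fold changes from edgeR were -2.27 (SE 0.17, adjusted p = 3.39e-06) for *X33*-YPA and, for *GS115*-YPAH5x, -2.65 (SE 0.18, adjusted p = 2.08e-06). Both calls held, at an adjusted p under 0.05, in every alternative fit. Directly, *X33*-YPA differed from *GS115*-YPAH5x by 0.38 on the log2 scale, with a 95% interval of -0.01 to 0.77 (adjusted p = 0.107, and 0.0158 with library totals alone). *URB1*, whose *S. cerevisiae* protein forms a complex with that of *URB2*, stood at 5.26 and 8.52 CPM in A and B, 7.81 and 5.08 CPM in C and D, and 8.57 and 6.9 CPM in E and F. These 3 groups overlapped, with log2 fold changes of -0.11 (95% interval -0.74 to 0.53) and 0.16 (95% interval -0.46 to 0.79). The locus tags on either side of *URB2*, described as the ubiquitin ligase UBR1 and as GAL83, had log2 fold changes of 0.31 and 0.42 in *X33*-YPA. In *GS115*-YPAH5x they were 0.19 and 0.31. Neither neighbour fell with *URB2*.

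*NOC3*, which in *S. cerevisiae* binds large subunit precursors together with *NOC2*, stood at 24.3 and 29 CPM in A and B, 9.46 and 10.9 CPM in C and D, and 11.2 and 9.5 CPM in E and F. By edgeR it fell to a like level in both, with log2 fold changes of -1.39 (SE 0.17, adjusted p = 6.34e-05) and -1.37 (SE 0.17, adjusted p = 9.37e-05). Directly the difference was -0.02 (adjusted p = 0.941). *NOC2* had 24.3 and 35.4, 26.1 and 22.1, and 27.1 and 27.7 CPM in the 3 groups and was not called, although without library A it was called against *GS115*-YPA (adjusted p 0.00602 and 0.0391). *MAK21*, the other member of this Noc group, which was put together after its values had been seen, had 65.6 and 80.4, 68.8 and 74.3, and 110 and 105 CPM. It rose in *GS115*-YPAH5x (0.55, SE 0.14, adjusted p = 0.00784, and 0.0601 without E) and was at -0.03 in *X33*-YPA. So the 3 Noc genes did not move alike. *UTP23*, the locus tag next to *NOC3* and a small subunit member, also fell in both comparisons, with log2 fold changes of -0.92 and -0.90.

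*RPF1*, a Brix-domain factor of early large subunit precursors, stood at 74.7 and 77.3 CPM in A and B, 27.3 and 26.5 CPM in C and D, and 34.7 and 39 CPM in E and F. All 3 groups were apart. It fell, by edgeR's test, with log2 fold changes of -1.50 (SE 0.13, adjusted p = 8.07e-06) and -1.04 (SE 0.13, adjusted p = 9.42e-05). The direct difference of -0.45 (adjusted p = 0.02) was lost without C, D, E or F (adjusted p 0.0743, 0.104, 0.0619 and 0.196) and with library totals alone (0.302). *FMC1*, the locus tag before *RPF1*, also fell (-0.92 and -1.29). *SSF2*, another Brix-domain protein of the large subunit pathway, went the other way, from 34.3 and 25.2 CPM in A and B to 69 and 60.5 CPM in C and D and 68.3 and 62 CPM in E and F. It rose with log2 fold changes of 1.12 and 1.13 (SE 0.17 for each, adjusted p = 0.000243 and 0.000304). Of the remaining Brix-domain members of the large subunit group, *RPF2* rose in *X33*-YPA (0.41, adjusted p = 0.0361) and *BRX1* fell in *GS115*-YPAH5x (-0.35, adjusted p = 0.0411). Both calls were weak: that on *RPF2* was lost without B, C, E or F (adjusted p 0.121, 0.343, 0.0617 and 0.0732), and that on *BRX1* without A, E or F (0.0588, 0.251 and 0.11) and with DESeq2 (0.0533).

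*MRT4*, which in *S. cerevisiae* holds the place of the ribosomal stalk in large subunit precursors, stood at 17.2 and 15.6 CPM in A and B, 11.1 and 11.7 CPM in C and D, and 8.98 and 7.07 CPM in E and F. The groups did not overlap, and *GS115*-YPAH5x was lowest. By edgeR it fell with log2 fold changes of -0.52 (SE 0.17, adjusted p = 0.0211, and 0.0724 without C) and -1.03 (SE 0.17, adjusted p = 0.000664). The direct difference of 0.51 (adjusted p = 0.0407) was lost without C, D, E or F (adjusted p 0.0903, 0.154, 0.0549 and 0.303). BQ9382_C1-7890 is described as ribosome assembly 1 protein. It had 25.3 and 21.8 CPM in A and B and 11.6 and 10.2 CPM in C and D. In E and F it had 8.7 and 8.8 CPM. It fell in both comparisons (-1.11 and -1.43, SE 0.16 for each, adjusted p = 0.000171 and 5.09e-05), and both calls held in every alternative fit.

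Another set of large subunit factors differed mainly between *X33*-YPA and *GS115*-YPAH5x. *NOP15*, an RNA-binding protein at the spacer between 5.8S and 25S rRNA, stood at 35 and 24.4 CPM in A and B, 40.5 and 43.6 CPM in C and D, and 20.2 and 20.6 CPM in E and F. It was highest in *X33*-YPA and lowest in *GS115*-YPAH5x, without overlap. Directly, edgeR gave 1.05 on the log2 scale (SE 0.18, adjusted p = 0.00191), made up of 0.50 (adjusted p = 0.026) above and -0.54 (adjusted p = 0.0225) below *GS115*-YPA. *CGR1*, a small nucleolar protein of large subunit precursors, had the same order, with 10.8 and 9.78, 14.1 and 16.9, and 8.21 and 6.72 CPM. Its direct difference was 1.05 (SE 0.18, adjusted p = 0.00211), beside 0.59 (adjusted p = 0.0145) and -0.46 (adjusted p = 0.0494). *RRS1*, which in *S. cerevisiae* works with *RPF2* to bring the 5S particle into the large subunit, had 16.5 and 14.5, 17.6 and 16.6, and 9.59 and 9.56 CPM. Only the *GS115*-YPAH5x libraries were low, with log2 fold changes of 0.14 (95% interval -0.19 to 0.48) in *X33*-YPA, -0.69 (SE 0.15, adjusted p = 0.00324) in *GS115*-YPAH5x and 0.84 (SE 0.15, adjusted p = 0.00274) directly. The direct calls on *NOP15*, *CGR1* and *RRS1* held in every alternative fit. Against *GS115*-YPA those on *NOP15* were lost without B, C or D in *X33*-YPA (adjusted p 0.106, 0.077 and 0.154) and without A, E or F in *GS115*-YPAH5x (0.0863, 0.0939 and 0.0693). Those on *CGR1* were lost without B or D (0.0504 and 0.142), and without A, E or F (0.103, 0.066 and 0.263) and with DESeq2 (0.0511).

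The factors *ERB1*, *YTM1* and *NOP7* form a complex in *S. cerevisiae* that is needed to mature 25S and 5.8S rRNA. *ERB1* stood at 19 and 25 CPM in A and B, 24.1 and 26.9 CPM in C and D, and 31.9 and 33.7 CPM in E and F. It rose in *GS115*-YPAH5x (0.57, SE 0.16, adjusted p = 0.0119 from edgeR), a call lost without A or F (0.0661 and 0.0876) and with library totals alone (0.0631). *YTM1* had 18.9 and 21.3, 15.8 and 14.4, and 16.1 and 16.6 CPM. It fell in *X33*-YPA (-0.41, SE 0.15, adjusted p = 0.0297), which was lost without B, D or E (0.0933, 0.107 and 0.0621) and with library totals alone (0.082). The *NOP7* gene, listed as pescadillo (*PES1*) and not a member by the rule, had 21.3 and 20.8, 27.6 and 31.2, and 17 and 16.8 CPM. It rose in *X33*-YPA (0.48, a call lost without D). By edgeR it was at -0.32 in *GS115*-YPAH5x (adjusted p = 0.0716) and differed directly by 0.80 (SE 0.14, adjusted p = 0.00215). *NOG1*, a GTPase of large subunit precursors, had 138 and 164, 128 and 112, and 130 and 137 CPM and was not called, except in *X33*-YPA without library A (adjusted p = 0.0128) and with a filter of at least 10 CPM in 2 libraries (0.0432). *RLP7*, a ribosomal protein relative that acts in assembly, had 22.1 and 23.1, 43.7 and 43.3, and 33.4 and 30.8 CPM, and rose in both comparisons (0.94, adjusted p = 0.000126, and 0.51, adjusted p = 0.00698, the latter lost without E at 0.0818). Of the 37 large subunit members, *X33*-YPA had 11 called higher and 7 lower, which is 29.7% and 18.9% beside 33.4% and 32.8% of all genes. *GS115*-YPAH5x had 8 and 11 of them (21.6% and 29.7%, all genes 30.7% and 29.1%), and the direct comparison 8 and 2 (21.6% and 5.41%, all genes 19.8% and 21.6%).

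Of the 46 small subunit factors, *X33*-YPA had 7 called higher and 13 lower, which is 15.2% and 28.3% beside 33.4% and 32.8% of all genes. *GS115*-YPAH5x had 6 and 17 (13% and 37%, all genes 30.7% and 29.1%), and the direct comparison 7 and 4 (15.2% and 8.7%, all genes 19.8% and 21.6%). Their median log2 fold changes were -0.14, -0.26 and 0.04. These factors build the small subunit processome, the particle around the U3 snoRNA in which the 18S rRNA is cut out of the precursor. *FYV7* (BQ9382_C4-0435), an rRNA processing factor required for 18S rRNA in *S. cerevisiae*, stood at 51.9 and 47.5 CPM in A and B, 8.25 and 9.13 CPM in C and D, and 15.4 and 14.9 CPM in E and F. No 2 groups overlapped, and *X33*-YPA was lowest. It fell by edgeR's test with log2 fold changes of -2.51 (SE 0.14, adjusted p = 7.07e-07) and -1.71 (SE 0.14, adjusted p = 6.79e-06), and the direct difference was -0.80 (SE 0.14, adjusted p = 0.00243). All 3 calls held in every alternative fit. The locus tags on either side of *FYV7* fell as well, a translational activator of COX1 with -2.04 and -1.66 and a WD40 repeat protein with -1.42 and -1.39. The sources used here do not say whether counting used strand, so the part of shared reads in the values of *FYV7* was not tested.

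*UTP12* and *UTP13* both belong to UtpB, a WD40 repeat complex of the processome in *S. cerevisiae*, and went in opposite directions in *X33*-YPA. *UTP12* stood at 103 and 90.3 CPM in A and B, 34.9 and 31.1 CPM in C and D, and 73.7 and 87.5 CPM in E and F. It was low in C and D, and edgeR put its log2 fold change at -1.55 (SE 0.15, adjusted p = 1.49e-05). In *GS115*-YPAH5x it was not called (-0.26, 95% interval -0.59 to 0.06, adjusted p = 0.147, and 0.0247 with library totals alone). The direct difference was -1.29 (SE 0.15, adjusted p = 0.000381). *UTP13* had 9.35 and 10.9, 24.1 and 27.4, and 22.7 and 21.6 CPM, and rose in both (1.35, SE 0.15, adjusted p = 4.14e-05, and 1.13, SE 0.15, adjusted p = 0.000168). Of the other UtpB members, grouped here after their values had been seen, *UTP18* rose (0.45 and 0.39), *UTP21* fell (-0.47 and -0.53) and *UTP6* was not called (0.21 and 0.12). The calls on *UTP18* were lost without A, D or F in *X33*-YPA (adjusted p 0.0694, 0.205 and 0.0582) and without any single library in *GS115*-YPAH5x (0.061 to 0.201), and that on *UTP21* in *GS115*-YPAH5x without E (0.0723). *PWP2*, a UtpB gene outside the rule, was at -0.04 and 0.31, not called.

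**Figure D4:**
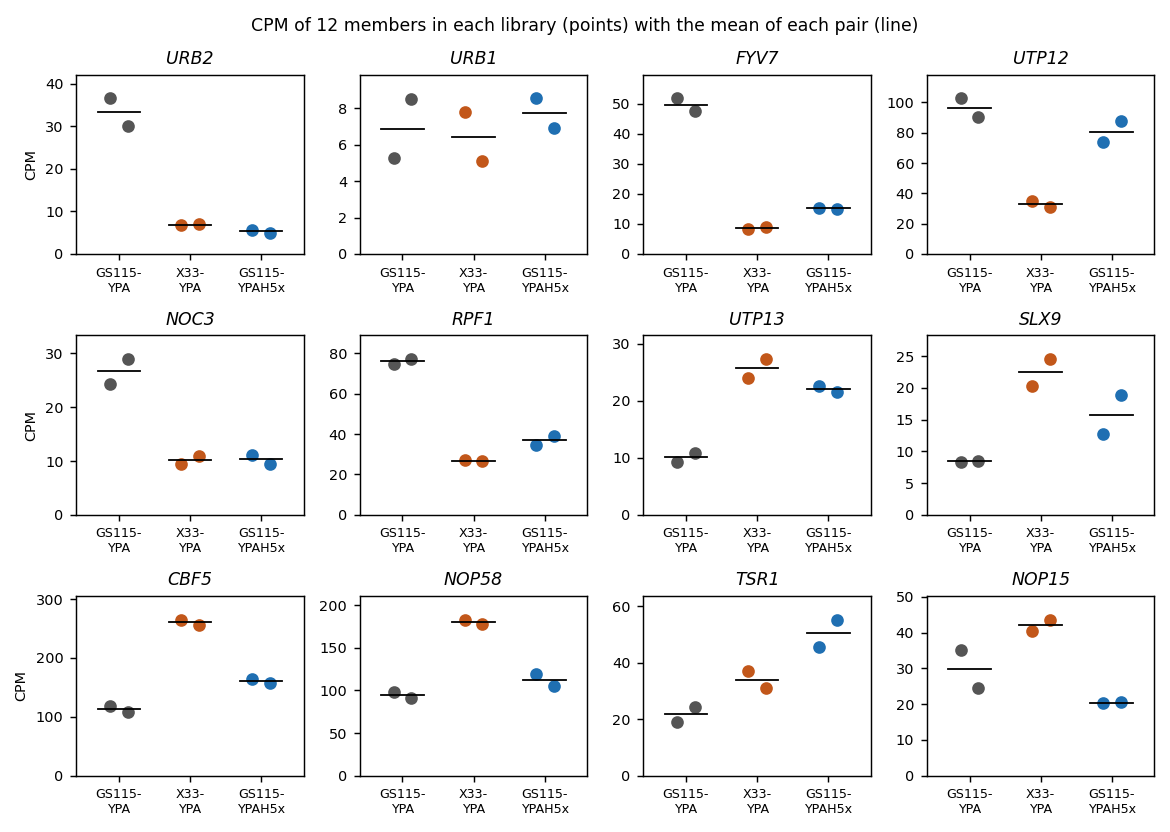
CPM of 12 members in each library (points, 2 a group) with the mean of each group (line), on linear axes that start at 0. *URB2* is high in *GS115*-YPA alone while *URB1* overlaps between groups, *UTP12* is low in *X33*-YPA alone, and *CBF5* and *NOP58* are highest in *X33*-YPA.

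*UTP8*, of the UtpA complex that binds the start of the rRNA precursor in *S. cerevisiae*, stood at 40.7 and 38.7 CPM in A and B, 26.7 and 26.8 CPM in C and D, and 20 and 19.1 CPM in E and F. The groups were apart, with *GS115*-YPAH5x lowest. It fell by edgeR's test in both (-0.57, SE 0.13, adjusted p = 0.00297, and -1.02, SE 0.13, adjusted p = 0.000104). The direct difference of 0.45 (adjusted p = 0.019) was lost without C, D, E or F (adjusted p 0.0692, 0.0854, 0.0983 and 0.161). Of the other 5 UtpA members, *UTP5* rose (0.41 and 0.59), and *UTP4*, *UTP10*, *UTP15* and *UTP17* were not called against *GS115*-YPA. The call on *UTP5* was lost in *X33*-YPA without A, C, D, E or F (adjusted p 0.0624 to 0.166) and in *GS115*-YPAH5x without E (0.07). Without B *UTP10* was called higher in both (0.0057 and 0.00468, and 0.0334 in *X33*-YPA with library totals alone) and *UTP4* in *GS115*-YPAH5x (0.00693), while without A *UTP4* was called lower in *X33*-YPA (0.024). *UTP22*, which in *S. cerevisiae* forms a complex with *RRP7*, had 20.2 and 26.3, 50.6 and 50.7, and 45.5 and 39.3 CPM. It rose in both (1.12, SE 0.16, adjusted p = 0.000166, and 0.87, SE 0.16, adjusted p = 0.00109). *RRP7* itself fell, with 119 and 147, 71.2 and 102, and 84.6 and 87.1 CPM (-0.62, adjusted p = 0.0137, and -0.63, adjusted p = 0.0141). These calls on *RRP7* were lost without B or C in *X33*-YPA (0.0605 and 0.0881) and without B, E or F in *GS115*-YPAH5x (0.0571, 0.0658 and 0.0577).

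Several small subunit factors were lowest with added histidine. *NOP6*, an RNA-binding protein of the small subunit pathway, stood at 10.2 and 9.9 CPM in A and B, 7.33 and 7.74 CPM in C and D, and 4.58 and 4.5 CPM in E and F. By edgeR it was at -0.41 in *X33*-YPA (adjusted p = 0.0537, and 0.0463 with RLE size factors and 0.0412 without the 10 most abundant genes) and fell in *GS115*-YPAH5x (-1.14, SE 0.18, adjusted p = 0.000365). The direct difference of 0.73 (adjusted p = 0.00981) was lost without D, E or F (0.0585, 0.0662 and 0.0795). BQ9382_C4-1120 had 33.2 and 21.6, 21.6 and 23.1, and 12.7 and 13 CPM, and fell in *GS115*-YPAH5x (-1.09, SE 0.20, adjusted p = 0.0011). It was at -0.29 in *X33*-YPA (adjusted p = 0.212, and 0.00594 without B). Its protein name reads as the kinase HAL5 and its orthology group as a processome protein, so its membership is uncertain. *UTP30*, a ribosomal protein relative of the processome, had 3.62 and 4.74, 2.88 and 3.23, and 2.35 and 1.7 CPM, and fell in *GS115*-YPAH5x (-1.04, SE 0.27, adjusted p = 0.00768, and 0.0756 without F). *IMP3* and *IMP4*, partners of *MPP10* in *S. cerevisiae*, fell there as well (-0.54 and -0.37), but both calls were lost without E or F (0.0901 and 0.123 for *IMP3*, 0.178 and 0.137 for *IMP4*), and that on *IMP4* also without A (0.0955). *MPP10* was at 0.04 (95% interval -0.33 to 0.41). *BMS1*, a GTPase of the processome, had 121 and 129, 83 and 83, and 106 and 99.2 CPM. It fell in *X33*-YPA (-0.59, SE 0.13, adjusted p = 0.0025) and was at -0.28 in *GS115*-YPAH5x (adjusted p = 0.0807, 0.0336 without A, 0.0377 with the filter of 10 CPM and 0.00977 with library totals alone).

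Among the snoRNP and modification genes, *CBF5*, the enzyme of box H/ACA particles that makes pseudouridine, stood at 119 and 109 CPM in A and B, 265 and 256 CPM in C and D, and 164 and 158 CPM in E and F. The groups did not overlap, and *X33*-YPA was highest. By edgeR it rose in both (1.20, SE 0.13, adjusted p = 3.71e-05, and 0.50, SE 0.13, adjusted p = 0.00856) and differed directly by 0.69 (SE 0.13, adjusted p = 0.00346). The call in *GS115*-YPAH5x was lost without E or F (0.0765 and 0.0627) and with library totals alone (0.0954), and the direct one without F (0.0575). *NOP58*, a core protein of box C/D particles, which guide rRNA methylation, had 97.8 and 90.9, 183 and 178, and 119 and 105 CPM. It rose in *X33*-YPA (0.94, SE 0.14, adjusted p = 0.000194) and was not called in *GS115*-YPAH5x (0.25, 95% interval -0.05 to 0.55). The direct difference of 0.69 (adjusted p = 0.00392) was lost without F (0.0715). Its partner *NOP56* had 172 and 181, 221 and 219, and 177 and 173 CPM and was not called against *GS115*-YPA (0.31, adjusted p = 0.0535, and -0.01, adjusted p = 0.934), though it was in *X33*-YPA without B (0.0361) and with library totals alone (0.029). *NOP1*, the methyltransferase of the same particles and outside the rule, had 87.2 and 91.2, 135 and 141, and 125 and 129 CPM and rose in both (0.63 and 0.51, the latter lost without F at 0.0792). *TSR3*, which in *S. cerevisiae* completes a modified base of 18S rRNA, had 10 and 8, 8.95 and 8.01, and 5.81 and 5.93 CPM. It fell in *GS115*-YPAH5x (-0.62, SE 0.19, adjusted p = 0.0181), lost without A, E or F (0.0597, 0.0989 and 0.071). *NAF1*, an assembly factor of the H/ACA particles, was not called in any comparison.

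The 3 nuclease members showed no shared direction. *RRP42*, a subunit of the exosome that trims rRNA, stood at 10.7 and 13.4 CPM in A and B, 7.11 and 7.81 CPM in C and D, and 12.9 and 12.5 CPM in E and F. It was low in C and D, with log2 fold changes from edgeR of -0.69 (SE 0.17, adjusted p = 0.00585) against *GS115*-YPA and -0.77 (adjusted p = 0.00773) against *GS115*-YPAH5x. *POP5* and *POP1* encode subunits of RNase MRP, which cuts the rRNA precursor. *POP5* had 2.16 and 1.24, 1.73 and 1.94, and 0.793 and 0.994 CPM, from 31 to 85 reads a library. In *GS115*-YPAH5x, where both libraries lay below *GS115*-YPA, it was at -0.92 (SE 0.37, adjusted p = 0.0515) and passed in 5 of 13 alternatives, which gave adjusted p from 0.01 to 0.256. Its direct difference of 1.04 (95% interval 0.23 to 1.86, adjusted p = 0.0436) was lost without C, D, E or F (0.0934, 0.165, 0.214 and 0.119). *POP1*, with 21.9 and 19.6, 23.5 and 23.7, and 21.6 and 25.5 CPM, was not called.

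In export and cytoplasmic maturation, *SLX9*, which in *S. cerevisiae* helps to export the small subunit precursor, stood at 8.39 and 8.48 CPM in A and B, 20.3 and 24.6 CPM in C and D, and 12.7 and 18.9 CPM in E and F. All 4 other libraries lay above *GS115*-YPA. By edgeR it rose in *X33*-YPA by the largest log2 fold change of the 99 members, 1.41 (SE 0.21, adjusted p = 0.000202), and in *GS115*-YPAH5x by 0.90 (SE 0.21, adjusted p = 0.00393, lost without F at 0.0566). *TSR1*, a GTPase-like factor of cytoplasmic small subunit precursors, had 19 and 24.3, 37 and 30.9, and 45.7 and 55.2 CPM, without overlap. It rose in both (0.65, SE 0.17, adjusted p = 0.00721, lost without C at 0.0809, and 1.22, SE 0.17, adjusted p = 0.000218). Its direct difference of -0.57 (adjusted p = 0.0232) was lost without D or F (0.159 and 0.187) and with library totals alone (0.17). *RIA1*, a GTPase that frees the large subunit of an anti-association factor, had 28.1 and 33, 26.6 and 22.4, and 45.8 and 43.2 CPM. It rose in *GS115*-YPAH5x (0.54, SE 0.15, adjusted p = 0.00992), which was lost without A or E (0.0512 and 0.0695) and with library totals alone (0.083). The call on the direct difference of -0.86 (SE 0.15, adjusted p = 0.00207) held in every alternative fit. The kinases *RIO1* and *RIO2*, which act on late small subunit precursors, were not called, except without B (*RIO1* in *GS115*-YPAH5x, adjusted p = 0.0155, and *RIO2* in both, 0.0258 and 0.0386) and with library totals alone or a stricter filter.

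The transcription factor gene *SFP1* stood at 18.4 and 25.9 CPM in A and B, 12.4 and 9.65 CPM in C and D, and 21.9 and 20.6 CPM in E and F. It was low in C and D. edgeR gave -1.01 on the log2 scale (SE 0.20, adjusted p = 0.00136) in *X33*-YPA and -0.06 (95% interval -0.49 to 0.37) in *GS115*-YPAH5x, with a direct difference of -0.95 (SE 0.20, adjusted p = 0.00527, and 0.0518 without D). *TMA23*, a nucleolar protein, was high in C and D, with 4.87 and 4.31, 7.97 and 9.29, and 4.07 and 3.77 CPM. It rose in *X33*-YPA (0.91, SE 0.20, adjusted p = 0.00233), was at -0.23 in *GS115*-YPAH5x (adjusted p = 0.357) and differed directly by 1.14 (SE 0.20, adjusted p = 0.00227). BQ9382_C1-4060, described as a nucleolar protein that regulates cell growth, had 17.6 and 13.8, 17.4 and 19.7, and 10.1 and 10.8 CPM. It fell in *GS115*-YPAH5x (-0.58, SE 0.17, adjusted p = 0.0146, lost without A or E at 0.0508 and 0.0932) and differed directly by 0.83 (SE 0.17, adjusted p = 0.00492).

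**Figure D5:**
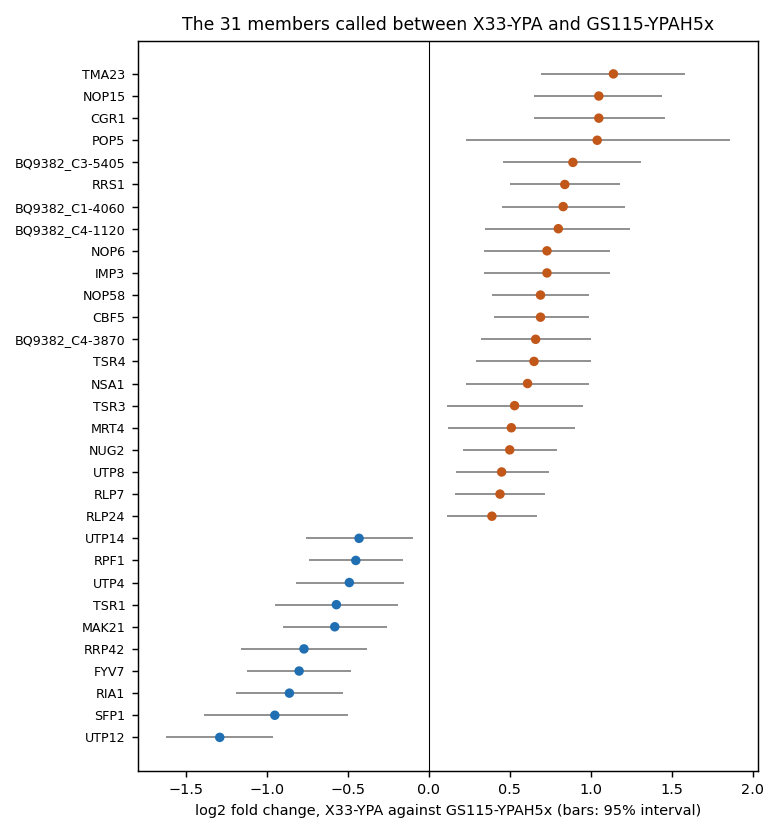
The 31 members called between *X33*-YPA and *GS115*-YPAH5x, with log2 fold change (points) and 95% interval (bars). The 21 members higher in *X33*-YPA reach 1.14 (*TMA23*) and the 10 lower ones reach -1.29 (*UTP12*).

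Genes named after *S. cerevisiae* regulators of this regulon, of ribosomal protein genes or of RNA polymerase III were also measured. *MAF1*, the repressor of RNA polymerase III, stood at 53.1 and 54.6 CPM in A and B, 27.3 and 24.9 CPM in C and D, and 38.9 and 43.9 CPM in E and F, and fell in both. In *GS115*-YPAH5x that call was lost without E or F (adjusted p 0.251 and 0.0645, from edgeR). The kinase gene *TOR1* rose in both, with 81 and 86.1, 155 and 154, and 150 and 146 CPM. The gene listed as *SCH9* also rose in both, with 36.7 and 55.1, 76.7 and 95.9, and 111 and 121 CPM. Both kinase genes lay above *GS115*-YPA in all 4 other libraries, while *SFP1* was called lower in *X33*-YPA. *RAP1*, a DNA-binding regulator of ribosomal protein genes, had 131 and 147, 59.9 and 62, and 102 and 102 CPM. It fell in both (-1.19, adjusted p = 3.42e-05, and -0.44, adjusted p = 0.0148, the latter lost without E or F at 0.104 and 0.101). *STB3*, described as a protein that binds an rRNA processing element, was not called against *GS115*-YPA (-0.33, adjusted p = 0.099, and 0.29, adjusted p = 0.149), but was in *X33*-YPA without B (0.0093) and in *GS115*-YPAH5x without A (0.0213). The gene whose orthology group is *IFH1* but whose protein name reads midasin was not called there either (-0.26, adjusted p = 0.106, and 0.12, adjusted p = 0.462). As its name and group differ, its place among the regulators is uncertain.

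Other genes of the pathway that the rule did not take in, 51 by their descriptions, were called in both directions. In *X33*-YPA 17 of them were called higher and 20 lower (33.3% and 39.2%, all genes 33.4% and 32.8%), and their median lay at -0.04 on the log2 scale. In *GS115*-YPAH5x it was 13 and 21 (25.5% and 41.2%, all genes 30.7% and 29.1%), with a median of -0.11. In the direct comparison 13 were higher and 12 lower (25.5% and 23.5%, all genes 19.8% and 21.6%). *RPP1*, shared by RNase P and RNase MRP, had 134 and 152 CPM in A and B, 14.6 and 19.4 CPM in C and D, and 21.4 and 21.4 CPM in E and F (-3.07 and -2.74). *RRP5*, an RNA-binding protein that acts in both subunit pathways, had 302 and 343, 128 and 123, and 218 and 200 CPM and fell in both (-1.36 and -0.62, the latter lost without F at 0.0547). *ENP1*, which leaves the nucleus with the small subunit precursor, had 18.7 and 20.6, 32.9 and 25, and 39 and 49.1 CPM and rose in both (0.56, lost without A or C at 0.08 and 0.211, and 1.16). Of 23 subunits of RNA polymerases I and III, 8 were called higher and 5 lower in *X33*-YPA (34.8% and 21.7%, all genes 33.4% and 32.8%). In *GS115*-YPAH5x 5 were called higher and 11 lower (21.7% and 47.8%, all genes 30.7% and 29.1%). Directly it was 5 and 1 (21.7% and 4.35%, all genes 19.8% and 21.6%).

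The 70 cytosolic ribosomal proteins, which these factors put together with rRNA, had higher medians. In *X33*-YPA 63 were called higher and 1 lower (90% and 1.43%, all genes 33.4% and 32.8%). In *GS115*-YPAH5x it was 47 and 4 (67.1% and 5.71%, all genes 30.7% and 29.1%). In the direct comparison 60 were higher and 1 lower (85.7% and 1.43%, all genes 19.8% and 21.6%). On the log2 scale their medians lay at 1.22, 0.54 and 0.69 in the same order. With library totals alone the medians were 1.29, 0.34 and 0.95. The medians of the members, 0.00, -0.14 and 0.06, lay below those of the ribosomal proteins in each comparison. A test of the difference between both lists was not made.

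Some members have like descriptions or share an orthology group. BQ9382_C4-2940 and *NUG2* carry neighbouring locus tags and a like description, a nucleolar GTP-binding protein, so reads may have been split between them. BQ9382_C4-2940 had 5.03 and 4.35 CPM in A and B, 8.45 and 10.9 CPM in C and D, and 6.62 and 8.45 CPM in E and F. By edgeR it rose in both comparisons (1.05, SE 0.21, adjusted p = 0.00174, and 0.68, SE 0.22, adjusted p = 0.0208). The second call was lost without B or F (0.0744 and 0.179) and with library totals alone (0.0821). *NUG2* rose in *X33*-YPA (0.42, adjusted p = 0.0178, lost without C or F at 0.153 and 0.0545) and was at -0.08 in *GS115*-YPAH5x (adjusted p = 0.607). BQ9382_C2-3255 is described as U3 small nucleolar RNA-associated protein 5, a name that also fits the symbol *UTP5*, whose own description reads differently. By edgeR BQ9382_C2-3255 fell in *GS115*-YPAH5x (-0.60, adjusted p = 0.0123, a call lost without B or F), where *UTP5* rose. BQ9382_C1-7890, described as ribosome assembly 1 protein, has a name that may also fit the symbol *RIA1*. It fell in *GS115*-YPAH5x (-1.43), where *RIA1* rose (0.54, a call lost in some alternative fits). Which row is the counterpart of that gene was not tested. *CIC1* and *UTP30* share an orthology group, and whether their values hold reads of each other was not tested.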

How the data were processed

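The deposited table holds the authors' raw read counts per gene for each of 6 libraries. The labels describe rRNA depletion with a kit for bacteria. The submitters' processing notes list featureCounts 1.6.4, Bowtie2, DESeq2, fastp 0.19.6 and bcl2fastq 2.19.0.316, without roles. Genome build, Bowtie2 version and strand setting: not given in the sources used here.

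Groups follow strain and medium in the labels. With edgeR 4.0.16 in R 4.3.3, genes were filtered by expression (5426 of 5427 kept), scaled by TMM and fitted over all libraries with the quasi-likelihood method (legacy, 3 residual degrees of freedom). Adjusted p-values (Benjamini-Hochberg, over all genes) under 0.05 were called. The SE was derived from the F value. The procedure was run on simulated counts in which few genes changed, equally in both directions. Such counts cannot show how the scaling behaves when most genes change. The spread between duplicates (common biological coefficient of variation 0.132) limits the precision, and depth adds to it in members with few reads. No test over the list was made.

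The members, their roles and the other lists were chosen with earlier results of these data known. The genes named are *URB2*, members called at an absolute log2 fold change of 1 or above against *GS115*-YPA, in each role the 3 with the smallest adjusted p in either such comparison, the 10 with the smallest in the direct one, and a set of core factors. Further genes were added after their values had been seen. Of the alternatives, 16 were planned (DESeq2 1.42.0, RLE scaling, filters, fits, thresholds, each library left out, membership by a single description) and 2 were added after seeing the data (library totals without TMM factors, and leaving out the 10 most abundant genes). A call held in every alternative fit where it kept an adjusted p under 0.05 in all 13 or 14 fits that tested the gene. The stricter thresholds and the membership by a single description were applied to the counts of members alone.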

Additional observations from a re-analysis of the deposited data

How the results depend on the processing

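Both single libraries and the scaling moved the counts of members. In *X33*-YPA against *GS115*-YPA, leaving out 1 library gave 15 to 23 members higher, 19 to 26 lower and a median log2 fold change of -0.10 to 0.00. In *GS115*-YPAH5x against *GS115*-YPA it gave 10 to 19 higher, 16 to 32 lower and a median of -0.21 to -0.12. In *X33*-YPA against *GS115*-YPAH5x it gave 7 to 27 higher, 5 to 14 lower and a median of 0.06 to 0.12. Over all genes the numbers of calls moved in the same fits. In the direct comparison both the members and all genes had the fewest calls higher without F and the most without B. These ranges of counts alone do not set the members apart from all genes. The medians over all genes were -0.03 to 0.01, -0.04 to 0.00 and 0.02 to 0.03 in the same order. Leaving out a library leaves its group with 1 sample, which is then assumed to vary as the other groups do. The cause of these moves was not tested.

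Membership by the protein name alone gave 13 higher and a median of -0.09 in *X33*-YPA, 9 higher and a median of -0.23 in *GS115*-YPAH5x, and 6 lower in the direct comparison. Membership by the orthology group alone gave 12 lower and a median of 0.08, 19 lower, and 13 higher in the same order. These lists are shorter, with 67 and 69 genes. The shares of all genes called higher and lower stayed at 33.4% and 32.8%, 30.7% and 29.1%, and 19.8% and 21.6% in the same order. At an adjusted p under 0.01, 15 members were higher and 16 lower in *X33*-YPA. At this threshold 16 were lower in *GS115*-YPAH5x, and 11 higher and 5 lower directly. The share of all genes at this threshold was not computed, so these counts cannot be read against all genes. Where a count is given for 1 direction alone, the other direction is not given here, so no balance of directions can be read from it. At an absolute log2 fold change of 1 or above the counts were 6 and 7, 3 and 10, and 4 and 1. Over all genes the shares there were 15.7% and 17.1%, 12.8% and 12.6%, and 2.89% and 7.21%. Library totals without TMM factors gave 8 higher (all genes 22.6%) with a median of -0.34 in *GS115*-YPAH5x. Directly they gave 41 higher and 5 lower (all genes 37.6% and 12.4%) with a median of 0.33. Of the 37 named members no direction of a called change reversed under any alternative. Of their calls, 18 of 23 in *X33*-YPA, 14 of 24 in *GS115*-YPAH5x and 9 of 20 in the direct comparison held in every alternative fit. The calls on *URB2* and *FYV7* against *GS115*-YPA were among those that held.

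No paired analysis was possible because the labels give the libraries letters and no replicate number that groups share.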
